A study of Rattus norvegicus with 24 samples.

Results

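The genes described here encode the cytochrome P450 enzymes of families Cyp1 to Cyp4, the glutathione S-transferases (GSTs) and the UDP-glucuronosyltransferase (UGT) family, measured in the testes of rats given the plasticizer dibutyl phthalate (DBP). They were chosen by symbol: every gene with a probe set of a single symbol that begins with Cyp1 to Cyp4 and a letter, with Gst and a letter, or with Ugt and a digit, leaving out Gsta1. The rule gave 71 genes of 14217 with such a probe set, namely 42 Cyp, 20 Gst and 9 Ugt genes, and the brightest probe set over the 24 arrays stood for each gene. For 7 of the 71 genes the array held more than 1 probe set. A further 7 probe sets carried several symbols of these families, among them both probe sets of the Ugt1a cluster, and were not used.

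P450s of these families are haem enzymes of the endoplasmic reticulum that oxidise drugs, pollutants, fatty acids and steroids, with electrons from the reductase encoded by Por. GSTs join glutathione to reactive products of such oxidation, and UGTs join glucuronic acid, taken from UDP-glucuronic acid, to phenols, steroids and phthalate monoesters. In liver many of these genes are induced through the aryl hydrocarbon receptor, the receptors CAR and PXR, or the transcription factor NRF2, while testis is known for GSTs of germ cells and for Cyp1b1, a P450 of steroid-making and other tissues outside the liver that oxidises oestradiol and polycyclic aromatic hydrocarbons. Some symbols in the set name proteins outside xenobiotic metabolism. Ugt8 encodes the enzyme that makes galactosylceramide, and Gstcd is named only for a GST-like domain.

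RNA came from testes of male Fisher 344 rats, 4 arrays in each of 6 groups, on Affymetrix Rat230_2 arrays. Dams were gavaged daily from gestational day 12 to 20 (GD20) with corn oil or with DBP at 50 mg/kg. Fetal testes of 4 oil dams and 4 DBP dams were taken at GD20, and the array of oil dam 2 is labelled as a pool. Testes of the DBP fetuses came 6 hours after the dam's final gavage; for the oil fetuses the labels give no such time. Male offspring of oil or DBP dams were gavaged once with corn oil or with DBP at 500 mg/kg on postnatal day 35 (PND35) and killed 6 hours later, so that pups of oil dams form the groups oil-oil and oil-DBP and those of DBP dams the groups DBP-oil and DBP-DBP (dam first, pup second). Litters of the pups are not given in the labels, so p-values measure the spread between these samples and not necessarily between litters.

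The intensities are probe-set values that the submitters scaled to a common trimmed mean, and intensities of different probe sets cannot be read as relative abundance. Fold changes are differences of log2(intensity + 16), which understates changes of dim genes, and ± after a fold change is a standard error. Changes were tested with limma across all 31042 probe sets that are not controls, with Benjamini-Hochberg adjustment and a threshold of 0.05. Array medians ran from 164 to 175 at GD20 and from 101 to 114 at PND35, and RNA integrity numbers from 8.2 to 8.9. The manufacturer's spike-in controls were dimmer on the DBP arrays of dams 19 and 21 than on the other 6 GD20 arrays. At PND35 they were brighter on all 4 DBP-DBP arrays and on DBP-oil pups 132 and 134 than on the other 10 arrays. Defining markers of Leydig, Sertoli and, at PND35, meiotic and haploid germ cells were bright. The 6 measured liver markers summed to between 252 and 418 on any array, and none of them passed the test in a comparison of DBP with oil. Because whole testes were measured, fewer cells of a type and less RNA per cell cannot be told apart.

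Of the 71 genes, 4 passed the test in at least 1 comparison of DBP with oil: Cyp1b1 at GD20, Cyp2d2 and Gstcd after postnatal DBP in pups of oil dams, and Gstm1 after postnatal DBP in pups of DBP dams. Their promoters are shown because these genes carry the differences described below. Each line gives the 250 bases before the gene's start, 5′ to 3′ on the gene's strand, from RefSeq on build GRCr8, with capitals marking GCGTG on either strand, the core of the element bound by the aryl hydrocarbon receptor.
Cyp1b1: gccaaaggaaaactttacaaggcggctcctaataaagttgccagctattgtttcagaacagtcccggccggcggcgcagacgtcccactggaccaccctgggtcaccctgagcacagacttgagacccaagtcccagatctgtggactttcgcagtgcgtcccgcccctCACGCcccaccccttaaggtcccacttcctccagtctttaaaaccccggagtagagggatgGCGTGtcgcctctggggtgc
Cyp2d2: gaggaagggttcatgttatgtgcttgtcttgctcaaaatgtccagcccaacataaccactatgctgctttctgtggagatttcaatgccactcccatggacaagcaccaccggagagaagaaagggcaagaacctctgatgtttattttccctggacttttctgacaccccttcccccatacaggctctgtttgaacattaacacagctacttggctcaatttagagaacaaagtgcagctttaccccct
Gstcd: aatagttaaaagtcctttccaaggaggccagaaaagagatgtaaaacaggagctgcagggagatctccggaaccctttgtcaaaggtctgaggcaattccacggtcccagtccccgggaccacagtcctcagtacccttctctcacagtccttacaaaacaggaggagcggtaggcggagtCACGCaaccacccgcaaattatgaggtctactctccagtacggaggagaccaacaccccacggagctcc
Gstm1: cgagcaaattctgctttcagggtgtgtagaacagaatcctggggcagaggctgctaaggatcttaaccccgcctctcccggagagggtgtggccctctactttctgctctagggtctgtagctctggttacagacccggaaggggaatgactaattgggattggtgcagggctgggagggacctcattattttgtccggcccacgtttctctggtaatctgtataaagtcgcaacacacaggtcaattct

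The Cyp1b1 window lies at chr6:21094315-21094564 on the plus strand and holds the GCGTG core at 20 bases before the start and its reverse complement at 81 bases. The Gstcd window, chr2:224265902-224266151 on the minus strand, holds 1 reverse-strand core at 69 bases before the start. The windows of Cyp2d2 (chr7:115819282-115819531, minus strand) and Gstm1 (chr2:198343384-198343633, minus strand) hold no such letters. Among 33469 windows of this length, 25.9% hold GCGTG on either strand, against 25.4% of 63 windows of the genes described here. The letters TGACNNNGC, a core of the antioxidant response element, were also searched on both strands and occur in 10.1% of all windows and in 12.7% of the 63. The 1 match among the 4 genes above is in Gstcd, on the reverse strand at 76 bases, where it overlaps the GCGTG match. A match of letters is a description of the window and does not show that a factor binds there. Of the 71 genes, 60 had a window.

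An intensity of 50 was taken as a reference line to describe how bright the probe sets were. It is no detection call, and since probe sets differ in brightness for the same amount of RNA, the counts by family below describe probe sets and not the abundance of the transcripts. On all 24 arrays 22 of the 71 genes were at or above it, that is 31.0%, against 48.0% of all probe sets. The GSTs made up most of them, with 15 of 20 genes above the line on every array, including all 3 theta-class genes, both omega-class genes and 5 of 7 mu-class genes. Among the P450s 6 of 42 genes were above the line on every array: Cyp1b1, Cyp2d4, Cyp2j10, Cyp2s1, Cyp2u1 and Cyp4f17. Ugt8 was the only one of 9 Ugt genes to be so, and none of the 8 Ugt2 genes was. Another 18 genes, 25.4% of the 71 against 10.8% of all probe sets, stayed under the line on every array, and 31 genes crossed it on some arrays only.

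The 8 brightest probe sets over the 24 arrays were all GSTs: Gstm5 with a mean intensity of 18760, then Gstm2, Gstm1, Gstm7, Gsta4, Gsto2, Gsto1 and Gstt3, down to 3101. Gsta4 encodes the GST that conjugates lipid peroxidation products such as 4-hydroxynonenal, and omega-class GSTs reduce dehydroascorbate. Cyp1a1 and Cyp1a2, the classical targets of the aryl hydrocarbon receptor in liver, were dim throughout. Cyp1a1 averaged 12.3 and was under 50 on all 24 arrays, and Cyp1a2 averaged 10.98 and reached 50 on 1 array.

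**Figure D1:**
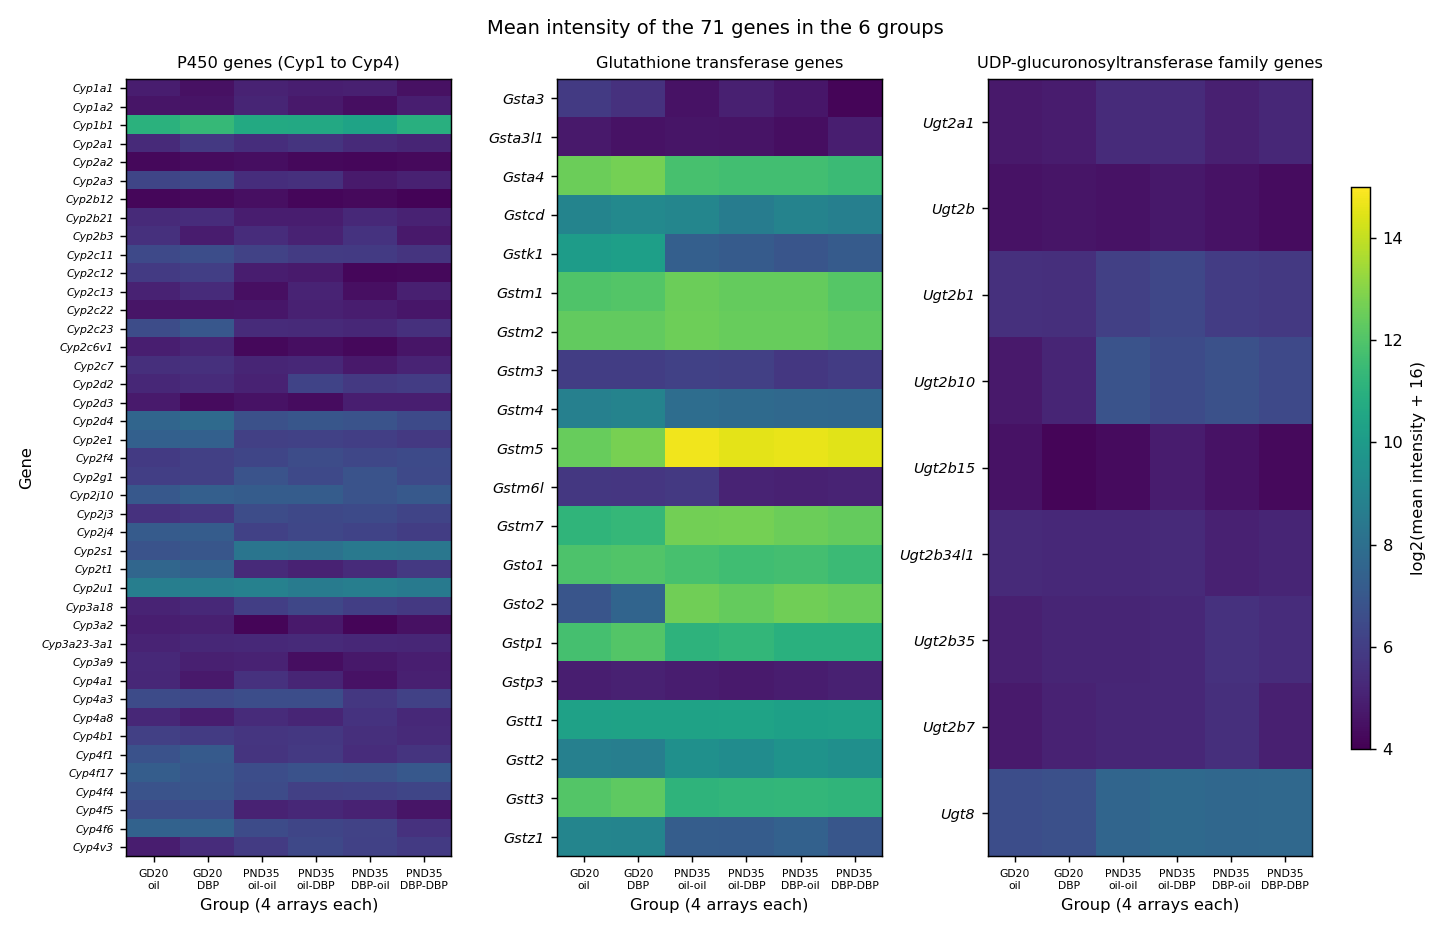
Group means of the 71 genes as log2(mean intensity + 16), 1 row per gene and 1 column per group of 4 arrays, in panels for Cyp, Gst and Ugt genes. Colours may be compared along a row but not between rows; along their rows, Gsto2 goes from a mean of 105 in GD20 oil to 6258 in PND35 oil-oil arrays, and Gstk1 from 1058 to 145.

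Cyp1b1 was the 1 gene of the set whose level at GD20 passed the test between fetal DBP and oil. In the oil group the intensities were 2072, 2085, 1996 and 2023 for dams 2, 3, 4 and 5. In the DBP group they were 2533, 2864, 2521 and 2600 for dams 16, 18, 19 and 21. The lowest DBP array stood above the highest oil array, and the oil arrays lay close together. The mean rose from 2044 ± 41.5 to 2630 ± 160 (SD, n = 4 each), a log2 change of 0.36 ± 0.06 with a limma adjusted p of 0.0323 and a 95% interval from 0.22 to 0.49. A two-sided exact permutation test of this gene alone gave p = 0.0286, the smallest that 70 splits of 4 against 4 can give. Any gene without overlap gets this p, so the test adds nothing to the lack of overlap. Of all probe sets 3.2% were higher without overlap and 4% lower. Of all probe sets 0.441% passed in this comparison, 0.209% upwards.

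The size of the Cyp1b1 difference depended little on single arrays, but its adjusted p did. Leaving out 1 array at a time gave log2 changes from 0.32 to 0.38. The call was lost without any one of the oil dams 2, 3, 4 or 5, with adjusted p of 0.109, 0.113, 0.137 and 0.12, and without DBP dam 16 or 21, with 0.0556 and 0.0505. It held without dam 18 (0.0371) or dam 19 (0.0366). Without both DBP arrays of low spike-in signal the change was 0.40 ± 0.07 with an adjusted p of 0.0359. Without the intensity trend in limma's variance prior the adjusted p was 0.213.

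At PND35 Cyp1b1 varied more between pups. The intensities were 1784, 1732, 1669 and 1238 in oil-oil pups 104, 110, 114 and 120, and 2317, 1168, 1379 and 1435 in oil-DBP pups 105, 111, 115 and 121. In DBP-oil pups 123, 127, 132 and 134 they were 1056, 1678, 1470 and 1108, and in DBP-DBP pups 124, 128, 133 and 135 they were 1714, 1459, 2296 and 2248. Every pair of these groups overlapped, and pup 105 was the highest of the 16. Postnatal DBP changed the level by -0.13 ± 0.19 on the log2 scale after fetal oil (limma adjusted p = 0.756, exact permutation p = 0.857) and by 0.52 ± 0.19 after fetal DBP (limma adjusted p = 0.158, exact permutation p = 0.0857). The interaction of both exposures was 0.64 ± 0.27, with an unadjusted p of 0.0277 and an adjusted p of 0.954 in the limma fit. None of these passed.

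**Figure D2:**
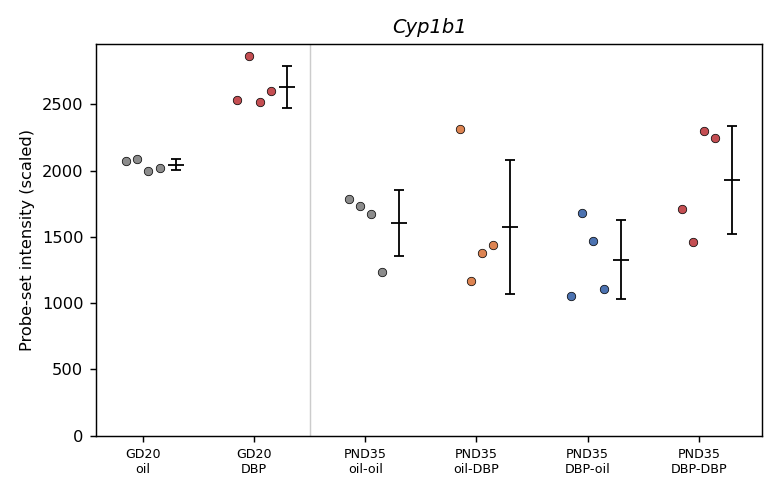
Cyp1b1 intensity on each of the 24 arrays by group, with the mean and SD of 4 arrays beside the points, on an axis from 0. The GD20 DBP arrays, from 2521 to 2864, lie above all GD20 oil arrays, and the 4 PND35 groups overlap.

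Among the 70 other genes at GD20 none passed. At an unadjusted p under 0.05 there were 5 of the 71 genes, all higher with DBP. Of all probe sets 11.8% had such a p, 5.06% as higher. The sign was upward for 51 of the 71, and the median log2 change was 0.09, beside -0.01 over all probe sets. Groups did not overlap for 4 genes, all higher: Cyp1b1, Cyp2c23, Gstm7 and Gstp1, where 3.2% of all probe sets were higher without overlap and 4% lower.

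Gstp1, the pi-class GST that conjugates electrophiles in many tissues outside the liver, had intensities of 3160, 3640, 3557 and 3513 in the GD20 oil arrays and 4023, 4090, 4758 and 4122 in the DBP arrays. All 4 DBP arrays were above all oil arrays. The log2 change of 0.29 ± 0.07 had a limma adjusted p of 0.147. Cyp2c23, an arachidonic acid epoxygenase, read 72.6, 83.7, 85.6 and 74.7 with oil and 111, 103, 113 and 114 with DBP, a change of 0.41 with an adjusted p of 0.35. Gstm7 lay between 2257 and 2421 with oil and between 2462 and 2748 with DBP.

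Gsto2 was the GST with the largest GD20 difference. It read 129, 106, 97.2 and 87.7 with oil and 210, 99.6, 154 and 228 with DBP. The groups overlapped through dam 18. The log2 change of 0.60 ± 0.23 had a limma adjusted p of 0.334 and was 0.46 without dam 21. Dam 21 stood apart in haploid germ cell markers: Prm1, a protamine of spermatids, read 1469 there, against 26.5 to 60.1 on the oil arrays and 27.5, 31.5 and 116 on the other DBP arrays. The 6 spermatid markers summed to 3845 in dam 21, 612 in dam 19 and 299 to 373 in the other DBP arrays, against 317 to 364 with oil. None of the 6 passed the test, and their part in the Gsto2 difference was not tested.

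Gstm5, a mu-class GST, did not pass either. Its GD20 DBP intensities were 5886, 5491, 8972 and 6903 for dams 16, 18, 19 and 21, against 5352 to 5872 with oil. Dams 19 and 21 were above all oil arrays and dams 16 and 18 were near them. The change was 0.27 with a limma adjusted p of 0.429, and 0.13 without dam 19. Dams 19 and 21 are the GD20 arrays with dimmer spike-in controls. Their spermatid sums were 612 and 3845, against 299 to 373 on the other GD20 arrays. The part of either in the Gstm5 values was not tested.

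**Figure D3:**
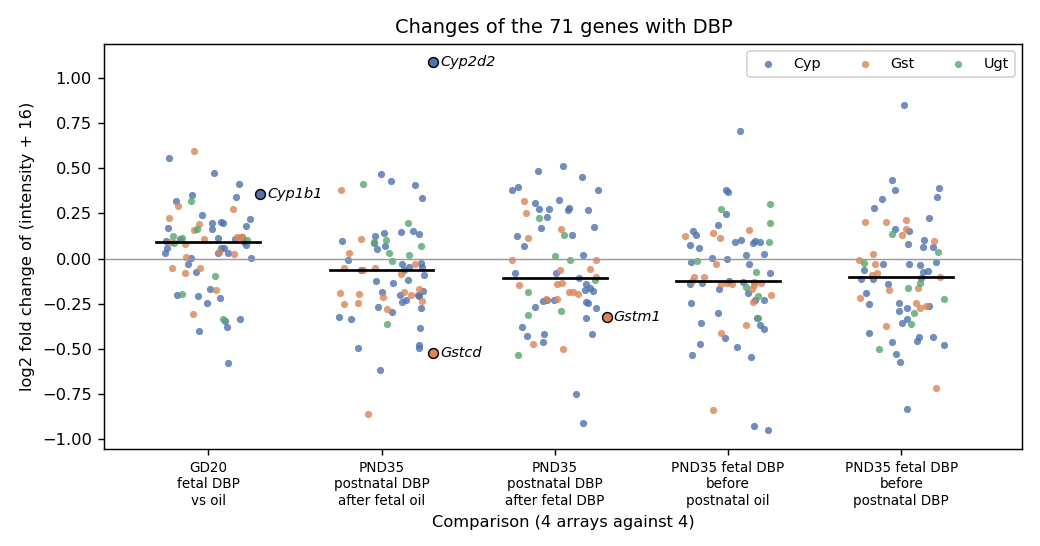
Log2 fold changes of the 71 genes in the 5 comparisons of DBP with oil, 4 arrays against 4, coloured by family, with the median as a bar; sideways spread is for display. Outlined points passed the limma threshold: Cyp1b1 at 0.36, Cyp2d2 at 1.09, Gstcd at -0.53 and Gstm1 at -0.32; medians run from -0.13 to 0.09.

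Postnatal DBP in pups of oil dams moved 2 of the 71 genes, 1 up and 1 down, while 8.92% of all probe sets passed, 4.77% up and 4.15% down. At an unadjusted p under 0.05 there were 7 of 71, against 24.1% of all probe sets. The median change was -0.06 for the 71 genes and -0.08 for all probe sets.

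Cyp2d2, a rat P450 of the debrisoquine-hydroxylating subfamily, rose. Oil-oil pups 104, 110, 114 and 120 read 10.1, 22.9, 18.8 and 18.9, and oil-DBP pups 105, 111, 115 and 121 read 57.8, 67.6, 63.3 and 45.2. Every oil-DBP array was above every oil-oil array. The log2 change was 1.09 ± 0.27 with a limma adjusted p of 0.0134, and it kept an adjusted p under the threshold when any single array was left out, the highest being 0.0468 without pup 104. Without both arrays extracted with Trizol, pups 104 and 115, the change was 0.92 ± 0.31 and no longer passed, at 0.0812.

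The gene was at or above 50 on 7 of the 24 arrays, and in pups of DBP dams its change did not pass. In DBP-oil pups 123, 127, 132 and 134 Cyp2d2 read 55.4, 25.9, 59.8 and 24.5, and in DBP-DBP pups 124, 128, 133 and 135 it read 39.6, 51.4, 37.2 and 53.6. Those groups overlapped, and the change between them was 0.13 ± 0.27. The difference of both postnatal changes, the interaction, was -0.96 ± 0.38, with an unadjusted p of 0.0202 and an adjusted p of 0.954 in limma. In pups of oil dams 3 genes had no overlap upwards, Cyp2d2, Cyp3a2 and Cyp4v3, and 0 of the 71 had none downwards, against 6.49% and 4.3% of all probe sets. Cyp3a2, a steroid and drug hydroxylase of rat liver, ran only from 0.825 to 2.67 in oil-oil pups and from 2.89 to 32.9 in oil-DBP pups, all under the reference line. Cyp4v3 had means of 43.6 in oil-oil and 68.3 in oil-DBP pups.

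Gstcd fell. The intensities were 536, 629, 418 and 485 in oil-oil pups and 536, 313, 356 and 303 in oil-DBP pups, in the pup order above. Pup 105 overlapped the oil-oil pups and the other oil-DBP pups lay below all of them. The log2 change was -0.53 ± 0.16 with a limma adjusted p of 0.0435. It lost the call without oil-oil pup 104, 110 or 120 (0.0883, 0.155 and 0.0588) and without oil-DBP pup 111, 115 or 121 (0.154, 0.0773 and 0.145), and kept it without pup 114 (0.0287). In DBP-oil and DBP-DBP pups Gstcd read 424 to 562 and 387 to 438.

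Pup 105 moved the count of genes that passed. Without it 6 of the 71 were called: Cyp2d2 up, and Gstcd, Cyp2u1, Gstm5, Gsto2 and Gstt2 down, with log2 changes of -0.71, -0.47, -0.34, -0.44 and -0.36 and limma adjusted p of 0.00101, 0.0246, 0.0156, 0.0135 and 0.0275. In that pup Gsto2 read 7284, against 4699, 4920 and 4959 in the other oil-DBP pups and 5549 to 6903 in oil-oil pups. Gstm5 read 28012 in pup 105, against 22289 to 24086 in the others and 24449 to 29217 in oil-oil pups. Its Ugt8 was low, at 99.8 against 223 to 239. For Gstm5 pup 105 was within the range of the oil-oil pups, and for Gsto2 it was above it. Without oil-DBP pup 115, Gstm6l also passed as lower, at -1.21 ± 0.37 with an adjusted p of 0.0482.

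Spermatid and Leydig cell markers, among others, moved in the same pups. Prm1 read 33819 in pup 105, 24720 to 26544 in the other oil-DBP pups and 30081 to 38155 in oil-oil pups. The 6 spermatid markers summed to 84378 to 111184 in oil-oil pups, to 101673 in pup 105 and to 68178 to 79472 in the other oil-DBP pups, and 4 of 6 fell in the test. The 7 Leydig markers summed to 15478 to 21130 in oil-oil pups and 6670 to 13993 in oil-DBP pups, with 4 lower and 1 higher in the test. All 7 had mean intensities above 50 in both groups. Of 4 markers of peritubular myoid cells 3 were higher in the test, with sums of 2748 to 2959 and 3903 to 4609. None of the 5 spermatocyte markers and neither of the 2 gonocyte and spermatogonia markers passed. Of 6 Sertoli markers 1 was higher (Rhox5, by 1.12) and 1 lower (Inhbb). Of 5 macrophage markers 1 was higher (Cd14, by 0.92) and 1 lower (Aif1). Lower too were 1 of 3 endothelial markers (Tek) and 1 of 2 blood markers (Alas2). The part of these markers in the GST differences was not tested.

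Postnatal DBP in pups of DBP dams moved 1 of the 71 genes, down, while 5.23% of all probe sets passed, 3.64% up and 1.58% down. Gstm1, a mu-class GST abundant in liver, was the gene. DBP-oil pups 123, 127, 132 and 134 read 5449, 5826, 5061 and 5436, and DBP-DBP pups 124, 128, 133 and 135 read 4208, 4645, 4285 and 4465. Every DBP-DBP array was below every DBP-oil array. The fall was -0.32 ± 0.08 on the log2 scale with a limma adjusted p of 0.0143.

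The fall in Gstm1 was lost without pup 123, 127 or 133, with adjusted p of 0.0529, 0.0594 and 0.0605, and its size then ran from -0.31 to -0.29. With a term for spike-in class in the fit it was -0.24 ± 0.09 at an adjusted p of 0.225. All 4 DBP-DBP arrays had the bright spike-in signal and 2 of the DBP-oil arrays had it. In pups of oil dams, where all arrays shared 1 spike-in class, Gstm1 read 6171, 5378, 6111 and 6002 with oil and 5377, 5067, 5844 and 5018 with DBP. These groups overlapped, and the change of -0.22 ± 0.08 had a limma adjusted p of 0.0923. The interaction was -0.11 ± 0.11, so the changes after fetal oil and after fetal DBP were not shown to differ.

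Groups of pups of DBP dams did not overlap for 5 of the 71 genes, all lower: Gstm1, Gstm2, Gsto1, Cyp2g1 and Cyp1a1, where 5.93% of all probe sets were lower without overlap and 6.06% higher, and none of the 71 was higher. That number of lower genes is near the share of all probe sets. Gstm2 read 5728, 6141, 5211 and 5306 in DBP-oil pups and 4701, 5056, 4546 and 5120 in DBP-DBP pups. Gsto1 read 3231, 3529, 3226 and 3449 in DBP-oil pups and 2854, 3087, 2544 and 3192 in DBP-DBP pups, a change of -0.22 with an adjusted p of 0.165. In pups of oil dams Gsto1 changed by -0.23 with an adjusted p of 0.0896. Other GSTs were higher in DBP-DBP pups without passing: Gsta3l1 by 0.32 ± 0.31, Gstk1 by 0.25 ± 0.25, Gstp3 by 0.16 ± 0.33 and Gstm6l by 0.11 ± 0.38. The groups overlapped for each of them. Gsta3l1, Gstp3 and Gstm6l had means under 50 in both groups. At an unadjusted p under 0.05 there were 7 of 71 genes, against 14.9% of all probe sets, and the median change was -0.11, beside -0.06 for all. Of the 7 Leydig markers 2 were lower and none of the 6 spermatid markers passed, with spermatid sums of 74935 to 98054 in DBP-oil and 72770 to 81318 in DBP-DBP pups. Of 4 peritubular myoid markers 3 were higher, with sums of 2342 to 3478 and 4006 to 4304, as were 1 of 3 endothelial markers (Kdr, by 1.14) and 1 of 5 macrophage markers (Cd14, by 1.14), and 1 of 6 Sertoli markers was lower. Their part in the Gstm1 difference was not tested.

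**Figure D4:**
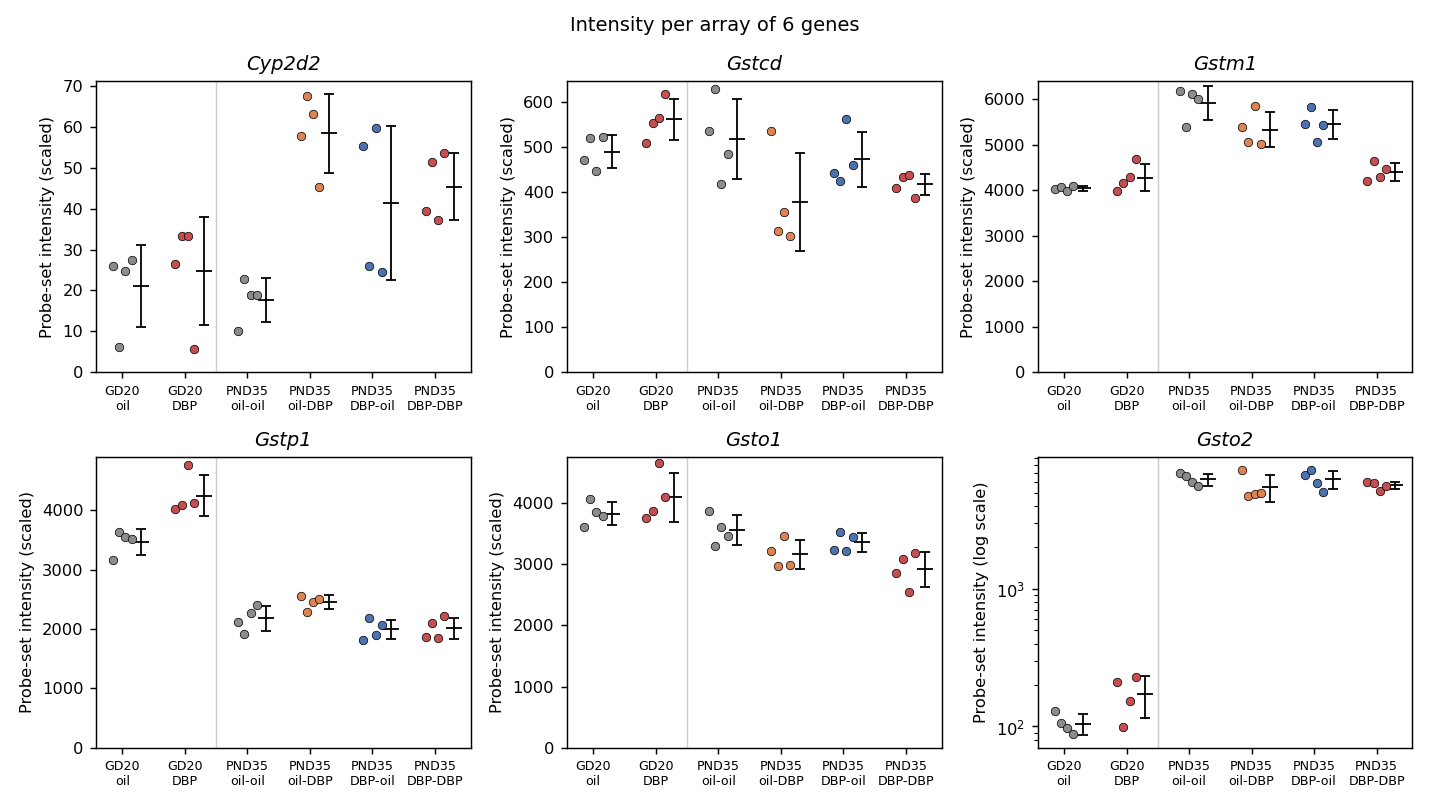
Intensity on each array by group for Cyp2d2, Gstcd, Gstm1, Gstp1, Gsto1 and Gsto2, with mean and SD of 4 arrays; axes start at 0 except for Gsto2, which is on a log axis. Cyp2d2 is higher in all oil-DBP than in all oil-oil arrays, Gstm1 is lower in all DBP-DBP than in all DBP-oil arrays, and Gsto2 reaches at most 228 on a GD20 array and at least 4699 on every PND35 array.

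Fetal DBP left no gene of the set past the limma threshold at PND35. Before postnatal oil 0 of 71 passed and 5 had an unadjusted p under 0.05, against 0.00322% and 7.41% of all probe sets. Before postnatal DBP 0 passed and 5 had an unadjusted p under 0.05, all lower, against 0% and 8.99%. Of all probe sets 3.63% had such a p as lower. The interaction gave 0 and 2 genes, against 0% and 4.72%. The median changes were -0.13 and -0.10 for the 71 genes, beside -0.01 and 0.00 for all probe sets.

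The smallest p before postnatal oil belonged to P450s. Cyp2d2 was higher after fetal DBP by 0.71 ± 0.27 with a limma adjusted p of 0.525, from the arrays given above, which did not overlap between oil-oil and DBP-oil pups (2.49% of all probe sets were higher without overlap and 1.63% lower). Cyp4a1 and Cyp4a3, fatty acid omega-hydroxylases that the receptor PPAR-alpha induces in liver, were lower by -0.95 ± 0.37 and -0.93 ± 0.37 with adjusted p of 0.535 and 0.568. Cyp4a3 read 93.2, 64.4, 71.01 and 94.98 in oil-oil pups and 58.5, 13.02, 55.4 and 28.2 in DBP-oil pups, without overlap. Cyp4a1 read 7.80 to 52.0 and 2.38 to 14.3, and these overlapped. Another probe set of Cyp4a3, which carries the symbol Cyp4a2 as well, was not used.

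Before postnatal DBP the smallest p belonged to Gstm1, Gstp1 and Cyp4f6. Groups did not overlap for Gstm1, Gstp1 and Gsta3, all lower, where 2.63% of all probe sets were lower without overlap and 2.54% higher. Gstm1 was lower in DBP-DBP than in oil-DBP pups by -0.25 ± 0.08 with a limma adjusted p of 0.338. Gstp1 read 2565, 2292, 2452 and 2508 in oil-DBP pups and 1867, 2109, 1852 and 2212 in DBP-DBP pups, without overlap, and differed by -0.26 ± 0.09 with an adjusted p of 0.37. Cyp4f6, a leukotriene-oxidising P450, read 48.8 to 76.3 in oil-DBP pups and 13.001, 48.7, 51.4 and 11.95 in DBP-DBP pups, a difference of -0.84 ± 0.31 with an adjusted p of 0.402. The spike-in class and the fetal exposure cannot be told apart in this comparison, since all oil-DBP arrays were dim and all DBP-DBP arrays bright in the spike-in controls. At PND35 the typical 95% interval of the genes above 50 on all arrays reached 0.29 to either side on the log2 scale, and the widest 0.51.

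More of these genes passed the test between ages than in any comparison of DBP with oil. In the oil controls, with each array centred on its median, 40 of the 71 genes differed between PND35 and GD20, 33 higher and 7 lower, against 67.4% of all probe sets, 41.9% higher and 25.5% lower. The direction rests on the scaling. PND35 arrays had lower medians than GD20 arrays by 0.65 on the log2 scale, and with the arrays as deposited 13 genes were higher and 19 lower, against 20.7% and 43.3% of all probe sets. Quantile normalization gave 17 higher and 13 lower, and centring on the 75th percentile 20 and 16. Under both median centring and the deposited scale 13 genes were higher and 7 lower. Of the 33 genes called higher, 12 were under 50 at both ages. The deposited intensities did not overlap between the ages for 12 genes that were higher and 20 that were lower, against 19.6% and 40.5% of all probe sets.

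Gsto2, an omega-class GST, rose most. The GD20 oil arrays read 129, 106, 97.2 and 87.7 and the PND35 oil-oil arrays 6903, 6645, 5935 and 5549. The deposited means differed 59.7-fold, a centred log2 change of 6.36 ± 0.11 with a limma adjusted p of 9.35e-15. Its neighbour in the genome, Gsto1, had means of 3832 and 3562, a change of 0.55 when centred and -0.11 as deposited, where it did not pass (adjusted p = 0.179).

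Gstm5 and Gstm7, mu-class genes with Gstm6l between them in the genome, rose too. Gstm6l changed by 0.74 when centred and did not pass (limma adjusted p = 0.117). Gstm5 went from 5538 ± 233 to 27571 ± 2132 (SD, n = 4 each), a log2 change of 2.96 ± 0.07. Gstm7 went from 2350 to 6463, a change of 2.10 ± 0.07. Gstm1 and Gstm2 rose less, by 1.20 and 0.88 when centred and 0.55 and 0.22 as deposited, all past the threshold.

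Beyond the GSTs, Ugt2b10, of the family that glucuronidates steroids, went from 10.97 to 95.5, and Ugt8 from 80.2 to 174. Cyp2s1, a P450 found mainly outside the liver, read 89.7 to 107 at GD20 and 256 to 359 at PND35, without overlap. Cyp4v3 and Cyp2j3, of families that oxidise fatty acids, went from 13.4 to 43.6 and from 30.8 to 78.6. These 5 changes, from 1.63 to 2.72 on the centred log2 scale, had the same direction and passed as deposited.

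Among the 7 falls, Gstk1, a GST of mitochondria and peroxisomes, went from 1058 to 145, with GD20 arrays from 996 to 1159 and PND35 arrays from 83.4 to 193. Its centred change was -2.14 ± 0.19 with a limma adjusted p of 2.13e-07. Gstz1, maleylacetoacetate isomerase of tyrosine breakdown, went from 501 to 137. Cyp2t1 went from 181 to 23.7, Cyp4f5 from 78.3 to 17.2, Cyp2e1, the ethanol-oxidising P450, from 151 to 52.0, Gsta3 from 42.7 to 7.21 and Gstt3 from 4193 to 2248. The falls of Gstk1, Gstz1, Cyp2t1 and Gstt3 passed under every alternative run for them. Those of Cyp4f5, Gsta3 and Cyp2e1 were near the threshold. Cyp4f5 lost the call without GD20 dam 2, 4 or 5 or pup 114 or 120 (adjusted p up to 0.0824), Gsta3 without dam 2, 4 or 5 or pup 104, 110 or 120 (up to 0.132), and Cyp2e1 without dam 3 or 5 or pup 110 or 120 (up to 0.075). Cyp1b1 went from 2044 to 1606, a centred change of 0.30 ± 0.10 that passed as higher, while as deposited it passed as lower at -0.36 and with the 75th percentile as the centre it was -0.06 and did not pass. Without pup 110 the centred change was 0.24 with an adjusted p of 0.0513.

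**Figure D5:**
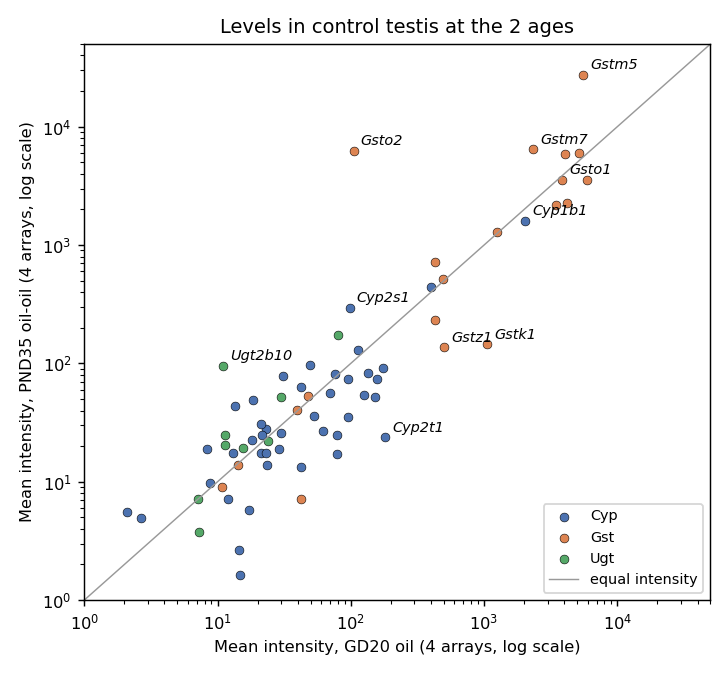
Mean intensity of each of the 71 genes in 4 GD20 oil arrays (horizontal, log axis) and 4 PND35 oil-oil arrays (vertical, log axis), as deposited, coloured by family, with the line of equal intensity. Gsto2, at 105 and 6258, stands farthest above the line, and Gstk1, at 1058 and 145, and Cyp2t1, at 181 and 23.7, stand far below it.

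The make-up of the testis differed between the ages in the same arrays. All 6 spermatid markers and all 5 measured spermatocyte markers were higher at PND35, with spermatid sums of 317 to 364 at GD20 and 84378 to 111184 at PND35. Of 7 Leydig markers 5 were lower, with sums of 56539 to 59991 and 15478 to 21130. Age and cell make-up cannot be told apart here. Nor can age and the spike-in signal. The spike-in controls had mean log2 levels of 8.24 to 8.54 on GD20 oil arrays and 5.99 to 6.15 on oil-oil arrays. All GD20 RNA was extracted with Trizol, as was that of oil-oil pup 104, while the other 3 oil-oil pups were extracted with columns. Pup 104 read 6903 for Gsto2 and 38155 for Prm1, against at most 129 and 60.1 on the GD20 oil arrays. These values come from only that pup and cover no other gene. The part of extraction in the age differences was not tested.

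Genes that supply cofactors to these enzymes, or act beside them, were among those that passed after postnatal DBP. The lists go by function: 26 measured genes for electron donors and other enzymes of the pathway, 12 for glutathione supply and export, and 20 for xenobiotic receptors and their partners. In pups of oil dams 5 of the 26 rose and 4 fell, 3 of the 12 rose, and 2 of the 20 rose and 2 fell, while 4.77% of all probe sets rose and 4.15% fell. In pups of DBP dams 4 of the 26 rose, 3 of the 12 rose, and 1 of the 20 rose and 1 fell, while 3.64% of all probe sets rose and 1.58% fell. At GD20 1 of the 26 rose, where 0.441% of all probe sets passed, and no gene of the other lists passed in limma. With an unadjusted limma p under 0.05 were 10 of the 26, 2 of the 12 and 4 of the 20. Of all probe sets 11.8% had such a p. In both comparisons of fetal exposure at PND35 and in the interaction 0 of the 58 genes passed in limma, with 5, 7 and 4 at an unadjusted p under 0.05 before postnatal oil, before postnatal DBP and in the interaction, against 7.41%, 8.99% and 4.72% of all probe sets.

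Ugdh, which makes the UDP-glucuronic acid that UGTs use, read 251, 158, 309 and 290 in oil-oil pups and 2529, 4693, 2119 and 4150 in oil-DBP pups. In DBP-oil pups it read 192, 289, 272 and 310 and in DBP-DBP pups 2159, 2119, 4224 and 3233. Both postnatal DBP groups stood above both postnatal oil groups with no overlap. The log2 changes were 3.56 ± 0.24 and 3.33 ± 0.24, with limma adjusted p of 1.86e-09 and 5.36e-09. In neither comparison did any of the 9 Ugt genes pass, nor did any have an unadjusted p under 0.05. None of the 8 Ugt2 genes among them was at or above 50 on all arrays, and the Ugt1a probe sets were not used.

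Gss, glutathione synthetase, read 268, 336, 281 and 300 in oil-oil pups and 469, 1241, 803 and 643 in oil-DBP pups, with log2 changes of 1.22 ± 0.18 after fetal oil and 1.24 ± 0.18 after fetal DBP. Abcc3, an exporter of glucuronides, rose by 2.53 and 1.68, and Fmo5, a flavin monooxygenase, by 2.65 and 2.28. Slc7a11, the cystine carrier, rose by 1.12 after fetal DBP and changed by 0.51 after fetal oil with a limma adjusted p of 0.086. Gclc, of the first step of glutathione synthesis, rose by 0.36 after fetal oil and changed by 0.10 after fetal DBP, which did not pass; the interaction was -0.26 ± 0.15. Sult1a1, a sulfotransferase, Ephx2, soluble epoxide hydrolase, Mgst2 and Gsta1 fell after fetal oil, by 0.76, 1.06, 0.73 and 0.37 on the log2 scale. After fetal DBP their changes were -0.45, -0.66, -0.44 and -0.06, none past the threshold, and no interaction passed.

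Of the receptors and partners, Maff, a small MAF protein that pairs with NRF2, rose by 3.18 and 3.42, and Arnt2, a partner of the aryl hydrocarbon receptor, changed by -0.62 and -0.69. Mafk rose by 0.92 and Keap1, which holds NRF2 in check, fell by 0.33 after fetal oil. After fetal DBP Mafk changed by 0.61 and Keap1 by -0.12, neither past the threshold, and neither interaction passed. Ahr and Nfe2l2, which encode the aryl hydrocarbon receptor and NRF2, did not pass in any comparison with DBP. Neither did Tiparp, a target of the aryl hydrocarbon receptor, which changed by 0.26 at GD20 with a limma adjusted p of 0.166. The 1 gene of these lists that rose at GD20 was Akr1b8, an aldo-keto reductase, by 0.83 ± 0.08, from 2004 to 3577.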

How the data were processed

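Testis RNA was measured on 24 arrays, 6 groups of 4, each array a sample. The authors deposited 1 linear intensity per probe set and array, scaled to a shared trimmed mean (500.135 to 500.194 over the arrays at a trim of 2%). GCOS 1.0 is named in the submitters' processing notes; how probes were summarized is not stated. The value 16 was added before log2, and 12.1% to 19.4% of an array's probe sets were under 16. GD20 arrays were used as deposited. The 16 PND35 arrays, and the 8 oil arrays of both ages, were centred on their medians, whose log2 values spanned 0.079 at GD20 and 0.155 at PND35. The table holds 31099 probe sets; 57 controls were left out and 31042 tested, with no filter. Of these 20826 had 1 symbol, 436 several and 9780 none in the platform annotation.

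Tests used R 4.3.3 and limma 3.58.1 (functions lmFit and eBayes, intensity trend on, two-sided, Benjamini-Hochberg), 1 fit for the 8 GD20 arrays, 1 for the 16 PND35 arrays and 1 for the 8 oil arrays. Scripts were tested on simulated data. No arrays were identical, and the number of arrays, not a read depth, limits precision. Genes were named where they passed in a DBP comparison, as the 8 largest rises and falls between ages, as the 8 brightest, or as the 3 smallest p where none passed, with Cyp1b1 always; others were named after their values were seen. The genes and lists were chosen with earlier results of these data known. Alternatives were quantile and 75th-percentile scaling, the other centring, pseudocounts of 1 and 64, a filter on dim probe sets, no trend, covariates for extraction and spike-in class, a fit of only those 8 arrays, a random block for neighbouring pup numbers, every probe set of a gene, and leaving out arrays.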

Additional observations from a re-analysis of the deposited data

Results flagged for a closer look

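In 23 named genes and 6 groups, 138 pairs in all, 10 arrays stood apart from the other 3 of their group by Dixon's gap test at the 95% level; chance gives about 1 in 20.

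At GD20, Cyp2d2 read 6.07 in oil dam 3, against 24.8 to 27.6 in the other oil arrays, and Ugt8 read 61.0 in the same array, against 83.9 to 88.0. Gstp1 read 4758 in DBP dam 19, against 4023 to 4122.

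At PND35, oil-oil pup 114 read 108 for Cyp2j3, against 64.6 to 71.99, and 21.96 for Gsta3, against 1.29 to 3.46. Oil-DBP pup 105 read 7284 for Gsto2, against 4699 to 4959, and 99.8 for Ugt8, against 223 to 239. In DBP-oil pups, Cyp4v3 read 24.6 in pup 132, against 63.8 to 65.7, and Gstm7 read 6951 in pup 134, against 5514 to 5757. In DBP-DBP pup 128 Cyp4a3 read 9.50, against 64.6 to 73.0. Causes were not tested.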

How the results depend on the processing

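Counts are of the 71 genes past the limma threshold. At GD20 the 1 called gene was 0 without the intensity trend (6 at an unadjusted p under 0.05), and 0 to 1 when 1 array was left out. After fetal oil, postnatal DBP gave 1 in place of 2 under quantile normalization, with a pseudocount of 64, without the trend, with the arrays as deposited, with only the 8 arrays compared and with extraction as a covariate, 0 without both Trizol arrays (6 unadjusted), and 1 to 6 when 1 array was left out; Cyp2d2 was the gene called in each case of 1. After fetal DBP it gave 0 in place of 1 without the trend (6 unadjusted) and with a term for spike-in class (5 unadjusted), and 0 to 1 when 1 array was left out. Both comparisons of fetal exposure at PND35 and the interaction stayed at 0 under every alternative run. Between ages the count was 25 in place of 40 with dim probe sets left out, because fewer genes were tested, and 33 to 39 when 1 array was left out. Over all alternatives run, the count between ages ranged from 25 to 55. Cyp1b1 between ages reversed to -0.51 under quantile normalization, -0.059 with centring on the 75th percentile and -0.36 as deposited. The groups share no replicate numbers and the labels do not say whether pups of adjacent numbers are related; adjacent numbers as a random block (correlation 0.0544) changed no call of the genes named. Cyp2d2 had no value with dim probe sets left out. Genes near or under 50 have no detection calls to set a lower limit, and 4 arrays a group left the widest 95% interval of the genes above 50 at 0.50 on the log2 scale at GD20 and 0.51 at PND35. Causes of these differences were otherwise not tested.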
